A study of Mus musculus with 2 samples.

Results

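The enzymes of glycolysis, the pentose phosphate pathway and the tricarboxylic acid (TCA) cycle, with lactate dehydrogenase and the lactate transporters, were compared between 2 populations of intraepithelial lymphocytes (IEL), the T cells that sit between the epithelial cells of the gut. The group holds 34 genes, taken by their symbols from the deposited comparison of both populations, out of 20664 genes with a probe set that names a single gene. Each gene is represented by the brightest of its probe sets (by mean log2 signal), and its other probe sets are given where they add to the value. The cells came from the small intestine of RAG-knockout mice on the C57BL/6 background, which lack T and B cells of their own, 8 weeks after they had received naive CD4 T cells, a transfer that causes colitis. Host and transfer were the same for both populations, which were sorted by CD8 alpha into CD4 cells that lack it (CD4 IEL) and CD4 cells that carry it (CD4CD8aa IEL). Each group has 1 array and no replicate, and the sources used here do not give how many animals were pooled, so every difference compares 2 arrays and carries no test.

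Glycolysis splits glucose into pyruvate in the cytosol, and activated T cells use it heavily and release much of the pyruvate as lactate. The pentose phosphate pathway branches off at its first product to make NADPH and the ribose of nucleotides. Pyruvate that enters mitochondria feeds the TCA cycle, which supplies electrons to respiration and carbon for synthesis, and memory and tissue-resident T cells are known to rely on mitochondrial oxidation to a greater degree than freshly activated effector cells.

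Signals are multiples of the array median, and differences are log2 CD4CD8aa IEL minus CD4 IEL, so a positive value means higher in CD4CD8aa IEL. The median signal before that division was 82.5 for CD4 IEL and 81.1 for CD4CD8aa IEL. Signals under a floor of 0.4 were raised to it, and a gene was called detected if either array exceeded it. On each array 69.7% of the probe sets did, a share that the floor itself sets, as it is the higher 30th percentile of the arrays. The arrays allow only 1 measure of spread, the SD of the log2 differences of probe sets of the same gene, which was 0.81 below the array median, 0.67 from 1 to 2 medians, 0.55 from 2 to 4, 0.45 from 4 to 16, 0.41 from 16 to 64 and 0.35 above. It covers neither animals nor RNA preparations. A shift common to most genes would not show on this scale, and poly-A spike-ins, which are added to the RNA before labelling, were 8.49-fold lower on the CD4CD8aa array (median), the part of which in the differences below was not tested. The sort marker Cd8a had signals of 3.79 and 291, and Cd4 had 72.6 and 86.4. Cd8b1, which marks conventional CD8 T cells, was dim, at 0.51 and 1.29 (2.53-fold higher). Of the T cell markers, Cd3d, Cd3g, Lck, Zap70 and Thy1 were within 1.5-fold, with Cd3e 2.01-fold higher and Cd2 6.78-fold lower. As the RNA came from whole sorted populations, fewer cells with a transcript and less of it per cell cannot be told apart in any value below.

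Relative to the array median, 28 of the 34 enzymes were within 1.5-fold between the populations (68.4% of all detected genes and 84.3% of the bright ones described next were), and 6 were further apart. All 34 were detected on both arrays, as were 13985 of the 20664 genes. The median log2 difference of the 34 was 0.01, against 0.06 over the 17341 detected genes. Only Idh1 was at least 2-fold apart, that is 2.94% of the enzymes, where 12.9% of all detected genes and 3.87% of the 7707 detected genes with a mean signal of at least 4 medians were. It was higher in CD4CD8aa IEL, as were 6.63% of all detected genes and 2.02% of the bright ones, and no enzyme was 2-fold lower, as 6.23% and 1.84% were. At least 1.5-fold apart were 6 enzymes (17.6%), of which Idh1, Ogdh and Ldhb were higher and Slc16a1, Rpia and Eno1 lower, while 31.6% of all detected genes and 15.7% of the bright ones passed that size. Split by direction, 17.2% of all detected genes and 10.1% of the bright ones were higher by that size, and 14.4% and 5.57% were lower. Among the 32 enzymes as bright as the latter genes the shares were 3.13% and 18.8%, near the background of genes of like signal. Of the 34, 18 lay above 0 and 16 below (52.9% above 0, against 54.7% of all detected genes). These counts of signs depend on the scaling: with the raw signals 16 lay above 0, and with differences centred on the median gene 14 did. With the same-gene SD as yardstick, 8 enzymes (23.5%) differed by more than that SD and 26 by less, where 31.6% of all detected genes and 28.5% of the bright ones differed by more.

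**Figure D1:**
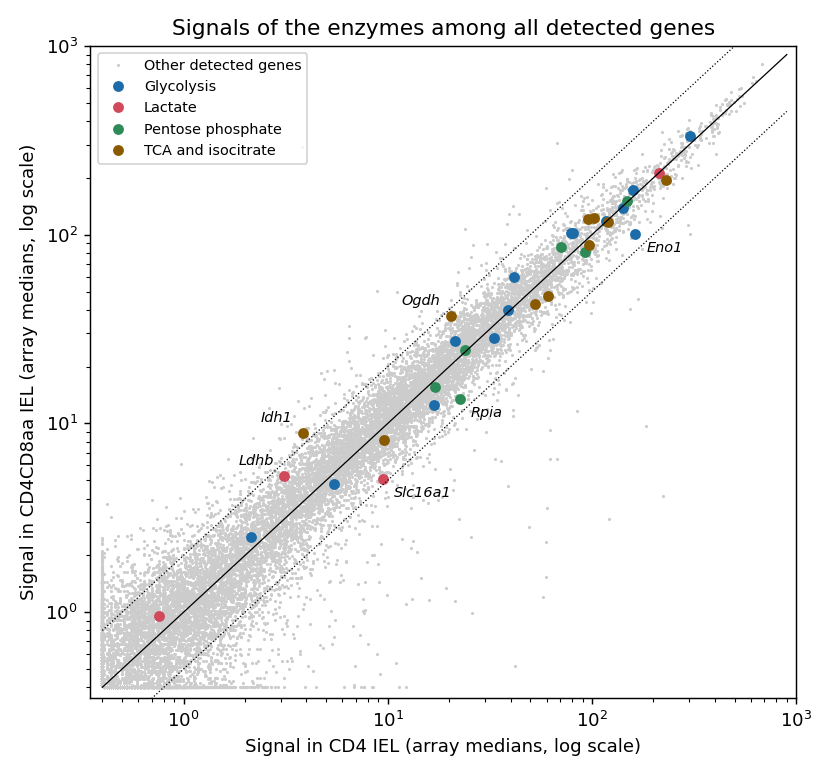
Signal of each enzyme in CD4 IEL (x axis) against CD4CD8aa IEL (y axis), both in array medians on log scales, coloured by pathway over all other detected genes in grey, with equal signal as a solid line and 2-fold as dotted lines. Signals of grey genes under the floor are drawn at 0.4. Only Idh1 lies beyond the upper dotted line, and Slc16a1, Rpia and Eno1 lie lowest against the solid line.

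In the upper part of glycolysis, which consumes ATP, the difference between the hexokinase isozymes exceeded their combined spread and those between the phosphofructokinase subunits did not. Hk1, a hexokinase that traps glucose as glucose 6-phosphate, gave 41.6 in CD4 IEL against 59.4 in CD4CD8aa IEL, a log2 difference of 0.51, and its other probe set gave 0.54. Hk2, the hexokinase that is induced on T cell activation, had 16.9 and 12.6, a difference of -0.43, within the same-gene SD of 0.45. The differences of these hexokinases were thus 0.94 apart, against a combined same-gene SD of 0.61. Of the phosphofructokinase subunits, which form the main controlled step of the pathway, Pfkp had 79.0 and 102 (log2 difference 0.37) and Pfkl had 21.3 and 27.4 (0.36), whereas Pfkm had 5.44 and 4.75 (-0.20). The 3 probe sets of Pfkl all gave higher signals in CD4CD8aa IEL, between 0.21 and 0.40. Those of Pfkp were split, with values from -0.31 to 0.37, and the negative one came from a probe set with signals of 2.77 and 2.23. The distance of Pfkl from Pfkm (0.56) and that of Pfkp from Pfkm (0.57) were within their combined same-gene SDs of 0.61 and 0.58.

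The enzymes between these steps differed little. Gpi1, which turns glucose 6-phosphate into fructose 6-phosphate, had 159 and 171, a log2 difference of 0.11, with its other probe sets at 0.10 and -0.10. Aldoa, the main aldolase of T cells and muscle, had 117 and 118, a difference of 0.01, and its 5 detected probe sets lay between -0.21 and 0.02. Aldoc, the brain-type aldolase, had 2.14 and 2.51 and a difference of 0.23 at a signal where the same-gene SD was 0.55. Tpi1, which interconverts the triose products of aldolase, had 39.0 and 39.7 (0.03), with 3 probe sets between -0.04 and 0.03. None of these 4 enzymes differed by more than its same-gene SD.

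The lower part of glycolysis, which yields ATP, held 1 larger difference. Eno1, the enolase of most tissues, measured 163 against 101 and was 1.61-fold lower in CD4CD8aa IEL, a log2 difference of -0.69 against a same-gene SD of 0.35. Its single probe set is of the kind whose probes may bind other sequences, and 4 further probe sets that name Eno1 together with other genes gave -0.24, -0.42, -0.80 and -0.35. All were lower in CD4CD8aa IEL, but the brightest of them (165 and 140.3) gave the smallest difference, and these probe sets cannot tell the genes they name apart. Gapdh, the dehydrogenase that makes NADH in glycolysis, is read as a single gene only by the array's control probe sets, of which the brightest had 302 and 334, a log2 difference of 0.14. Pgk1, which makes the first ATP of the pathway, had 142 and 139 (-0.03, other probe sets -0.02 and -0.33), and Pgam1, a phosphoglycerate mutase, had 33.2 and 28.3 (-0.23). Pkm2, the deposited symbol for the muscle-type pyruvate kinase gene Pkm and not a statement on its M2 splice form, had 80.6 and 102, a difference of 0.33 within the same-gene SD of 0.35.

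The control probe sets of Gapdh differed along the transcript. They read the 3′ end, the middle and the 5′ end of the transcript, and their log2 differences were 0.14, -0.06 and -0.35. The same order was seen for Actb, the cytoskeletal actin, with 0.18, -0.06 and -0.26. Towards the 5′ end the signal on the CD4CD8aa array was thus lower relative to the CD4 array for both transcripts. The range within Gapdh, 0.49, was larger than the difference of every other glycolytic enzyme except Hk1 and Eno1. What part the position of the probe sets has in the differences of the other enzymes was not tested.

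**Figure D2:**
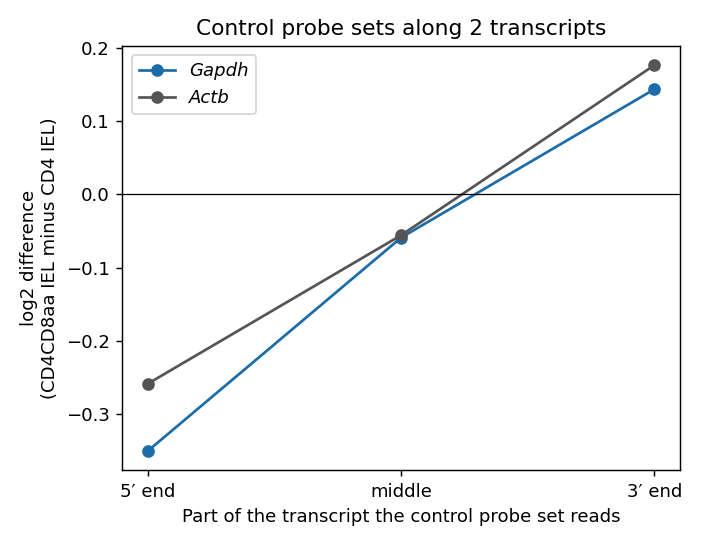
Log2 difference in signal (CD4CD8aa IEL minus CD4 IEL, y axis) of the control probe sets for the 5′ end, middle and 3′ end of Gapdh and Actb (x axis), 1 point per probe set. Both transcripts go from below 0 at the 5′ end (-0.35 and -0.26) to above 0 at the 3′ end (0.14 and 0.18).

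At the lactate step the abundant isozyme was even and the transporter was not. Ldha, the lactate dehydrogenase subunit of glycolytic tissues, had 213 and 211, a log2 difference of -0.01 from a single probe set. Ldhb, the subunit of heart and other oxidative tissues, had 3.12 and 5.25, which is 1.68-fold higher in CD4CD8aa IEL (0.75 against a same-gene SD of 0.45). Its 4 probe sets all lay above 0, but the other 3 gave 0.07, 0.09 and 0.37, and the median over the 4 was 0.23. Slc16a1, which encodes the lactate and pyruvate transporter MCT1, had 9.45 and 5.1 and was 1.85-fold lower in CD4CD8aa IEL, the most negative difference of the 34 genes (-0.89, same-gene SD 0.45). Its other probe set lay at the floor, with signals of 0.05 and 0.41, and carries no information on direction. Slc16a3, the transporter MCT4 of highly glycolytic cells, was dim in both populations (0.76 and 0.95, under the array median), and its difference of 0.32 was within the same-gene SD of 0.81. Bsg, the chaperone that brings these transporters to the surface and no member of the group, had 9.92 and 6.94, a difference of -0.52, and is named after its value was seen.

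The 6 genes of the pentose phosphate pathway lay on both sides of 0, from -0.74 to 0.28 with 3 above and 3 below and a median of -0.05, and none was at 2-fold. In the oxidative branch, which makes NADPH, G6pdx, the entry enzyme, had 23.8 and 24.4 (0.04), Pgls, the lactonase, 17.1 and 15.7 (-0.12), and Pgd, the second dehydrogenase, 70.9 and 86.1 (0.28). Of the 4 probe sets of Pgd, 3 gave values from 0.28 to 0.31 and the one without a cross-binding suffix gave -0.08. In the non-oxidative branch Rpia, the isomerase that makes ribose 5-phosphate for nucleotides, had 22.5 and 13.4 and was 1.67-fold lower in CD4CD8aa IEL (-0.74, same-gene SD 0.41, 1 probe set). The enzymes that return pentoses to glycolysis were even: Tkt, transketolase, had 148 and 150 (0.02) and Taldo1, transaldolase, had 92.2 and 80.9 (-0.19). A dim probe set of Tkt, with 0.34 and 0.72, gave 0.85, and one with 26.0 and 22.9 gave -0.18.

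For the 10 genes of the TCA cycle the median difference was -0.09 (log2), with 4 above 0 and 6 below, and held the 2 most positive values of the group. Idh1, which makes NADPH from isocitrate in the cytosol and is not a step of the cycle itself, had 3.86 and 8.88 and was 2.30-fold higher in CD4CD8aa IEL (1.202, same-gene SD 0.45). Its other probe set had 1.17 and 1.72 and gave 0.56, and both are of a kind shared between transcripts, so that no Idh1 value remains without such probe sets. Idh2, the mitochondrial NADP-dependent form, had 9.6 and 8.15 (-0.24), with 0.15 from its other probe set. Its difference was 1.44 below that of Idh1, against a combined same-gene SD of 0.64. Ogdh, the first subunit of the 2-oxoglutarate dehydrogenase complex of the cycle, had 20.3 and 37.0 and was 1.82-fold higher (0.87, same-gene SD 0.41). Its other probe set had 0.57 and 2.61 and gave 2.19, the same direction at a low signal.

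The remaining steps of the cycle lay within their same-gene SD. Cs, citrate synthase, which opens the cycle, had 95.5 and 122 (0.35), with its other probe sets at 0.15 and -0.13. Idh3a, the catalytic subunit of the isocitrate dehydrogenase of the cycle, had 60.8 and 47.3 (-0.36), but its other 3 probe sets gave 0.01, 0.13 and 0.53. The succinate dehydrogenase subunits, shared with the respiratory chain, were split, with Sdha at 102 and 123 (0.26, other probe sets 0.18, -0.02 and -0.14) and Sdhb at 97.2 and 88.3 (-0.14). Fh1, fumarase, had 52.4 and 42.8 (-0.29). The malate dehydrogenases were slightly lower in CD4CD8aa IEL, the mitochondrial Mdh2 with 230 and 194 (-0.24, other probe set -0.14) and the cytosolic Mdh1 with 120.1 and 117 (-0.04). For Mdh1 a pair of other bright probe sets gave -0.42 and -0.45, and a dim one, with 1.25 and 2.18, gave 0.80.

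**Figure D3:**
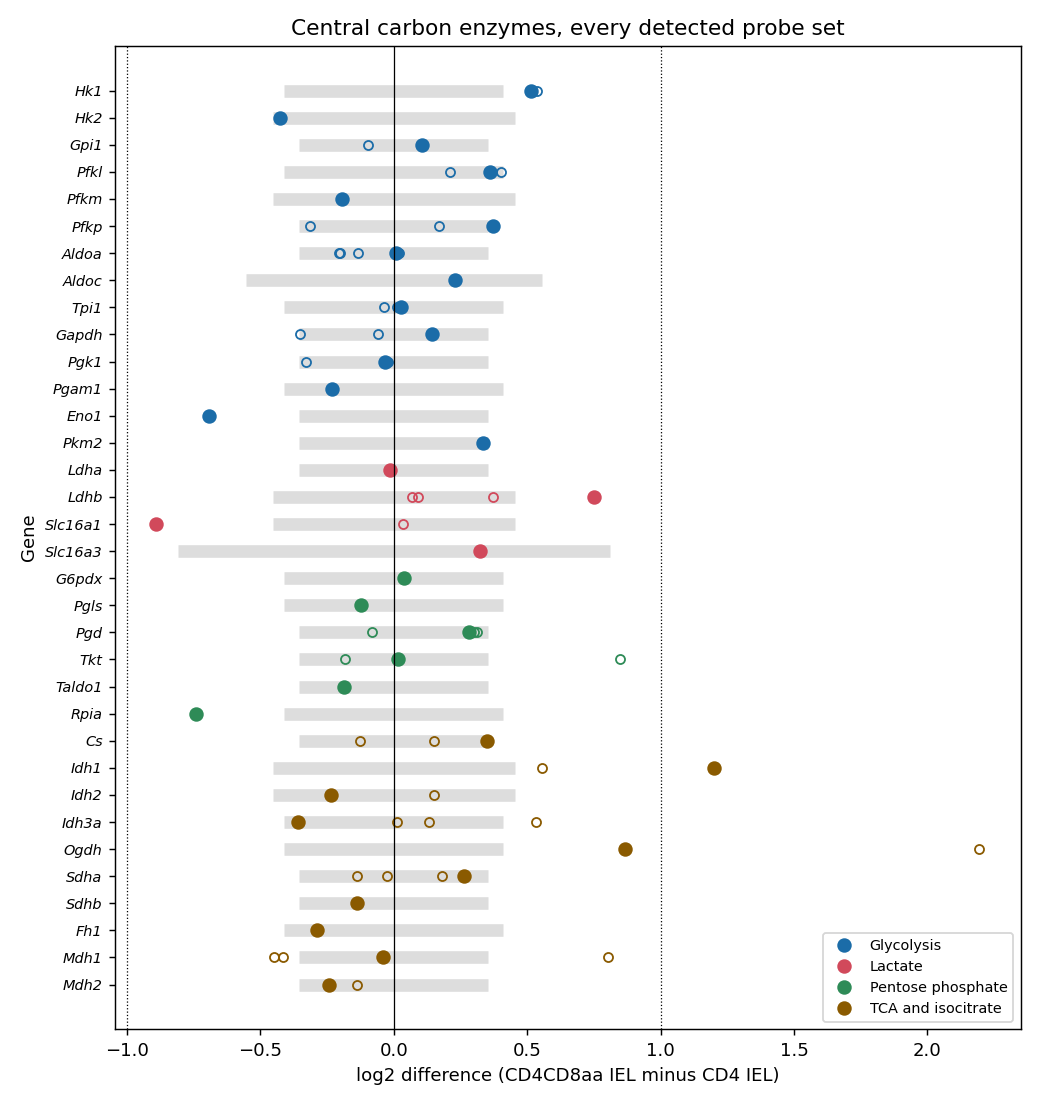
Log2 difference in signal (CD4CD8aa IEL minus CD4 IEL, x axis) of the 34 genes (y axis, by pathway), with filled points for the probe set with the highest mean signal, open points for other detected probe sets of the gene, and grey bars for plus and minus the same-gene SD at that signal. Only the filled points of Hk1, Pfkp, Eno1, Ldhb, Slc16a1, Rpia, Idh1 and Ogdh lie outside their bars, and dotted lines mark 2-fold.

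Of the 34 genes, 21 had several probe sets and 20 had several that were detected, out of 78 probe sets in all, of which 3 were not detected. In 7 of the 20, all detected probe sets pointed the same way, namely Hk1, Pfkl, Pgk1, Ldhb, Idh1, Ogdh and Mdh2. In the other 13 they pointed both ways, as for Gapdh, Cs, Idh3a and Mdh1. Slc16a1 is counted there only through its probe set at the floor. The same share over all genes with several detected probe sets was not computed. These counts therefore do not show whether such agreement is usual. Of the 6 genes at least 1.5-fold apart, Idh1, Ogdh and Ldhb had several probe sets of the same direction, Rpia and Eno1 rested on 1, and Slc16a1 had 1 above the array median.

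The 250 bases before the transcription start of Idh1 and Ogdh, the genes with the highest difference, and of Slc16a1 and Rpia, those with the lowest, are shown so that the sequences at the extremes of the group can be compared. They are from RefSeq (GRCm38.p6), 5′ to 3′ on the gene's strand: Idh1 at chr1:65186480-65186729 (minus strand, the first of 2 starts listed), Ogdh at chr11:6291347-6291596 (plus strand, the first of 6), Slc16a1 at chr3:104638414-104638663 (plus strand) and Rpia at chr6:70792176-70792425 (minus strand). Capitals mark matches, on either strand, to CACGTG (the E-box bound by MYC and related factors), ACGTG (the core bound by hypoxia-inducible factors, which lies inside CACGTG on both strands) and GGGCGG (the GC box bound by Sp1).
Idh1: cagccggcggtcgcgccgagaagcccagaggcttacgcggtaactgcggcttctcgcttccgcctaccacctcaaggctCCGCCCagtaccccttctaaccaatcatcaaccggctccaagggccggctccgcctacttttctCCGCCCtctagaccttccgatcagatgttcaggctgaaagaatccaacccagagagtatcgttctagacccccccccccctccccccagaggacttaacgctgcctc
Ogdh: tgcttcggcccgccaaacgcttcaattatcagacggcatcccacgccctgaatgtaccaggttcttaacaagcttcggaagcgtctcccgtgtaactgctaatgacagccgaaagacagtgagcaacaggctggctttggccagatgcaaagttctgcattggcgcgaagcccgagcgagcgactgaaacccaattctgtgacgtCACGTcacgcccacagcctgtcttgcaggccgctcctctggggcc
Slc16a1: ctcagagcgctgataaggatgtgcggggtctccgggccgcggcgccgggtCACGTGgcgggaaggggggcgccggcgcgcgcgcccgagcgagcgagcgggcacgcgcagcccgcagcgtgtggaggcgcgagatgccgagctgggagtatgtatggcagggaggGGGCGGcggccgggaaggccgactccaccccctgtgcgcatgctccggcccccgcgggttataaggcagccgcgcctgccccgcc
Rpia: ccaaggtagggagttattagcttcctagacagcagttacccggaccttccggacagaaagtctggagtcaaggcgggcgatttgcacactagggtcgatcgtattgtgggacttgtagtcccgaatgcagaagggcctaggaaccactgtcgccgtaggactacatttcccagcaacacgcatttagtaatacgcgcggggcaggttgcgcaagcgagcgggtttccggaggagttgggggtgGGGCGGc
Slc16a1 holds CACGTG once and thereby ACGTG 2 times, once on each strand. Ogdh holds ACGTG once, and GGGCGG occurs 2 times in Idh1 and once each in Slc16a1 and Rpia. Of the 34 genes, 33 had a promoter in the table. CACGTG was found in 3 of them (9.09%, against 6.64% of 17492 protein-coding genes), ACGTG in 10 (30.3%, against 17.6%) and GGGCGG in 23 (69.7%, against 42.7%), with the first start listed for each gene. These matches describe letters only and say nothing about binding in these cells.

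Other genes of the same pathways, 110 in 6 lists, were measured to set the enzymes beside their transporters, controls and partners. Of these, 106 matched a probe set and 96 were detected, and 7 were 2-fold or more apart, 2 of them higher and 5 lower (7.29%, against 12.9% of all detected genes), with a median of 0.08. Of these 7, the 2 with both signals above the array median were in the list on the entry of pyruvate into mitochondria. In that list, 11 of 12 matched genes were detected, with none 2-fold higher, 2 lower and 9 between, and a median of -0.29. The 2 lower genes are 18.2% of those detected. Of all detected genes 6.23% were 2-fold lower, and of those with a mean signal of at least 4 medians 1.84% were. Brp44l, the older symbol of Mpc1, a subunit of the mitochondrial pyruvate carrier, had 27.2 and 10.5 and was 2.59-fold lower in CD4CD8aa IEL (-1.37, same-gene SD 0.41, 1 probe set). Pdk1, a kinase that switches off pyruvate dehydrogenase, had 13.1 and 5.49 and was 2.38-fold lower (-1.25, same-gene SD 0.45), and its 4 detected probe sets lay between -1.25 and -0.22. These were the only genes of the 6 lists still 2-fold apart when the floor was raised to 2 or to 4 times the array median.

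Subunits of the pyruvate dehydrogenase complex itself, named after their values were seen, were less far apart. Pdha1, its first catalytic subunit, had 30.9 and 21.4 (-0.53, other probe set -0.23), Dld 14.4 and 10.9 (-0.40, other probe set -0.20) and Pdhx 3.61 and 2.1 (-0.78). Dlat had 7.19 and 8.3 (0.21), but its 3 probe sets ranged from -0.40 to 0.21. Brp44, the older symbol of the carrier's other subunit Mpc2, had 73.4 and 60.0, a difference of -0.29, with 0.04 from its other probe set. Pdk3, another kinase of the complex, had 12.1 and 16.3, a difference of 0.43, opposite to that of Pdk1. The values of Pdha1 and Pdhx exceeded their same-gene SD, while those of Dld, Dlat, Brp44 and Pdk3 did not.

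In the other lists the 2-fold genes were dim on both arrays. Of 20 detected further glycolytic isozymes and sugar transporters, Slc2a5, the fructose transporter, was at least 2.42-fold higher (0.35 and 0.97) and Ldhd, a D-lactate dehydrogenase, at least 2.77-fold lower (1.11 and 0.17), although another probe set of Ldhd gave 0.93. The glucose transporters of T cells, named after their values were seen, were close on their brightest probe sets, with Slc2a1 (GLUT1) at 14.0 and 12.0 (-0.22) and Slc2a3 (GLUT3) at 81.5 and 81.7. The 3 probe sets of Slc2a1 ranged from -0.70 to -0.22, and the 4 of Slc2a3 went both ways, from -0.63 to 1.10. Among 13 detected genes of the pentose phosphate pathway and NADPH supply, Shpk, which makes sedoheptulose 7-phosphate, was at least 2.48-fold higher (0.38 and 0.99) and Tktl1, a transketolase-like gene, at least 2.52-fold lower (1.01 and 0.32), with another probe set of Tktl1 at 0.81. None of 11 genes for the control of glycolysis and gluconeogenesis reached 2-fold, and the largest difference was that of Fbp1, a gluconeogenic phosphatase (0.57 and 1.07, 0.91). None of 25 further TCA cycle and shuttle genes did either, and the largest difference was that of Gpd2, the mitochondrial end of the glycerol phosphate shuttle, with 13.8 and 24.9 (0.85) and 3 probe sets between 0.55 and 1.29. Of 16 detected regulators, only Mlxipl, a glucose-sensing transcription factor, reached 2-fold, at least 2.27-fold lower from a CD4 signal of 0.91. Hif1a and Myc, drivers of glycolytic genes in activated T cells and named after their values were seen, had 120.4 and 80.9 (-0.57) and 9.08 and 10.8 (0.25), and the 4 probe sets of Hif1a lay between -2.36 and 0.04.

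**Figure D4:**
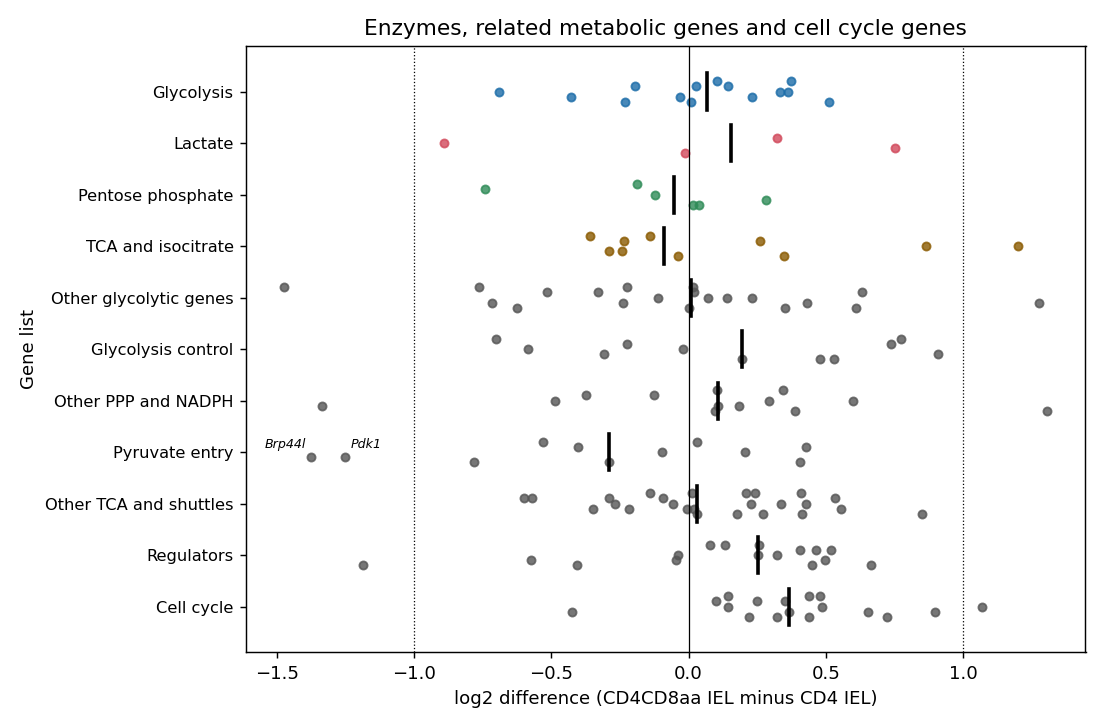
Log2 difference in signal (CD4CD8aa IEL minus CD4 IEL, x axis) of each detected gene by list (y axis), with the median of each list as a black bar and 2-fold as dotted lines. The 4 lists of enzymes (coloured) have medians between -0.09 and 0.15, the list on pyruvate entry -0.29 with Brp44l and Pdk1 beyond 2-fold, and cell cycle genes 0.37.

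Markers of proliferation and of other cells were read beside these values, since both could carry metabolic transcripts. Cell cycle genes were higher in CD4CD8aa IEL in 16 of 17, with a median of 0.37 and summed signals of 638 and 700.1. That is 94.1%, against 54.7% of all detected genes and 58.4% of those with a mean signal of at least 4 medians. The exception, named after its value was seen, was Pcna, the brightest of the list, with 249.7 and 185.9 (-0.43, same-gene SD 0.35). Bub1b, a mitotic checkpoint kinase, was the one at 2-fold (2.10-fold), and another of its probe sets gave -1.26. Epithelial markers had summed signals of 78.1 and 62.9 over 17 matched genes, all detected, with a median of -0.18, 1 at least 2-fold higher (Vil1) and 3 lower (Krt18, Krt19 and Muc2), that is 23.5% against 12.9% of all detected genes. Their defining member Epcam had 1.82 and 2.24, with its other probe set at -1.88, and none was at 0. Myeloid markers summed to 19.5 and 21.5 over 7 genes, of which 6 were detected and Itgam was not. Itgax was 3.03-fold higher and Cd14 2.97-fold lower, that is 33.3% of those detected against 12.9% of all detected genes. Csf1r, the brightest of the list, had 9.79 and 10.2, with 3 probe sets between -0.51 and 0.06. The part of these cells and of proliferation in the differences of the metabolic genes was not tested.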

How the data were processed

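RNA of 2 sorted populations of small intestinal IEL was hybridised to single-colour mouse arrays with 45101 probe sets, 1 array per group. The submitters' processing notes name GCOS 1.2, and the design text names GeneSpring GX10. How background was corrected and probe sets summarised the sources do not give. The authors deposited raw intensities and normalized intensities (raw divided by the array median, rounded to 2 decimals), per the file headers and a check of the values. Their deposited log2 and linear fold columns, per the file headers, run CD4 over CD4CD8aa and were not printed here. The 2 columns of present or absent calls and the filter column were not used.

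With Python 3.11.15, numpy 2.4.6 and pandas 2.3.3, normalized intensities were floored at 0.4 (the higher 30th percentile of the arrays) and log2 differences taken. Of the probe sets, 37795 name 1 gene (13 control probe sets included, among them those of Gapdh), 1399 name several, 5872 none and 35 a date made by a spreadsheet. No test is possible with single arrays, so 2-fold and 1.5-fold are size rules. The steps were tested on simulated arrays, with less noise than the same-gene SD of these arrays and with changes only in bright genes. That checks the computation and not the size rules. The same-gene SD used 20144 probe sets of 7367 genes. The number of arrays limits the precision.

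The named genes are all 34 members, Cd4 and Cd8a, and from each other list the genes at least 2-fold apart (at most 6 each way) or else the one with the largest difference. Other genes, among them Epcam, other T cell and cell type markers and those in the closing observations, were named after their values were seen. Members and lists were chosen with earlier results of these data known. The B cell and erythroid marker lists are not reported here.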

Additional observations from a re-analysis of the deposited data

How the results depend on the processing

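No paired analysis was possible because each group has 1 array and no test. The settings tried were no floor, floors 2 times as high and at 2 and 4 times the array median, raw signals, quantile normalization, median centring, the series matrix values, the median over probe sets and, chosen after seeing the data, leaving out probe sets that may bind other sequences. Over these the median of the enzymes stayed between -0.05 and 0.01, and between 4 and 6 of them were at least 1.5-fold apart. Of 334 values of single enzymes under these settings, 328 moved by less than the same-gene SD. Settings that change only the floor could move bright genes little. As reported only Idh1 was past 2-fold, and its sign held wherever it had a value. Some smaller differences changed sign, among them those of Idh3a (-0.36 as reported) and Pgd (0.28 as reported). The number at least 2-fold apart was 1 under every planned setting and 0 without probe sets that may bind other sequences, which leaves no probe set of Idh1. With the median over probe sets Idh1 fell to 0.88, below 2-fold, and the gene counted was Ogdh, at 1.53. In that setting Slc16a1 was at -0.43, a median that includes its probe set at the floor, Ldhb at 0.23 and Idh3a at 0.07. Without the probe sets that may bind other sequences Mdh1 was at -0.45 and Pgd at -0.08. Genes at least 2-fold apart on the whole array, 2231 as reported, numbered 3957 with no floor, 934 with the floor 2 times as high, 423 at 2 times and 281 at 4 times the array median. In the other metabolic lists they numbered 7 as reported, 11 with no floor, 2 under each higher floor and 4 with the median over probe sets. Dim genes thus make up most of these counts, and signal limits what can be said of Slc16a3 and Aldoc.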

Other observations

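The poly-A spike-ins, bacterial transcripts that are added to the RNA before labelling, differed more between the arrays than any enzyme did. Their 24 probe sets had a median log2 difference of -3.09, 8.49-fold lower on the CD4CD8aa array, with a range from -4.06 to -1.26. The hybridisation controls, which are added after labelling, had a median of 0.28 over 18 probe sets, with a highest value of 0.49.

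Several other genes of the metabolic lists, picked out after their values were seen and not all of those that did, had differences beyond their same-gene SD. Me2, the mitochondrial malic enzyme, had 6.62 and 10.03 (0.60), with 3 probe sets between 0.50 and 0.70. Aco1, the cytosolic aconitase that makes isocitrate for Idh1, had 29.4 and 43.3 (0.56), with 3 probe sets between 0.28 and 0.56. Suclg1, a subunit of succinyl-CoA ligase, went the other way, with 50.5 and 34.0 (-0.57, 1 probe set). Pfkfb3, which makes the activator of phosphofructokinase, had 6.03 and 3.71 (-0.70), but its other probe set gave -0.02.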
